A study of Mus musculus with 6 samples.

Results

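The cytosolic heat shock genes are *Hsf1*, which encodes the transcription factor that switches on the heat shock response, and 9 genes of its chaperone programme, namely *Hspa1a*, *Hspa1b*, *Hspa8*, *Hsp90aa1*, *Hsp90ab1*, *Hsph1*, *Dnaja1*, *Dnajb1* and *Hspe1*. They were taken by gene symbol from the table of read counts, and all 10 were found among its 34573 genes. In unstressed cells HSF1 is held inactive by chaperones. When unfolded proteins draw those chaperones away, HSF1 forms trimers, binds heat shock elements in promoters and raises the transcription of the chaperones themselves. HSP70 proteins fold clients in cycles of ATP hydrolysis that J-domain proteins start and nucleotide exchange factors such as HSP110 close, and HSP90 takes over later steps of folding. The inducible ones among these genes respond within minutes to proteotoxic stress, and the way cells are handled before lysis is known to induce them. The protein product of *Hspe1*, HSP10, works inside mitochondria, although its gene is a classic heat shock gene.

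RNA was sequenced from hematopoietic stem cells (HSCs) of the bone marrow of *Rpl22*-/- mice, labelled Rpl22 KO, and of *Rpl22*+/+ mice, labelled Rpl22 WT, with 3 samples of each genotype and no treatment. *Rpl22* encodes a protein of the large ribosomal subunit. The deletion is present in the germline of young adult mice on a C57BL/6 background, so every cell of the animal lacks the gene, and the cells were lineage-negative, CD48-CD150+ HSCs sorted straight into TriReagent for the preparation of libraries from polyadenylated RNA. The labels do not say whether each sample came from a separate animal or from pooled animals, so the p-values measure the spread between these samples, which may be technical.

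Each library held from 9321123 to 13385850 reads on genes, and the shallowest library was *Rpl22*+/+ replicate 3. Where 3 values are given for a genotype they stand in the order of replicates 1, 2 and 3. *Rpl22* itself had 449 to 546 reads in the *Rpl22*-/- libraries and 5031 to 7001 in the *Rpl22*+/+ libraries. All 12 HSC markers checked, *Kit*, *Slamf1* and *Procr* among them, had enough reads for a test, and their summed level, in CPM (reads scaled to a common library size), was 2699 to 2952 CPM in *Rpl22*-/- HSCs and 2784 to 2858 CPM in *Rpl22*+/+ HSCs. Of these, *Gata2* rose by a log2 fold change of 0.39 and *Fgd5* fell by 0.41 on the log2 scale (adjusted p = 0.0190 and 0.0308). Markers of B cells summed to 23.6 to 30.01 CPM and markers of T cells to 12.8 to 16.5 CPM, with *Ms4a1*, *Igll1*, *Cd3e* and *Trac* at 0 reads in every library. Erythroid markers summed to 29.9 to 41.3 CPM, while *Car1* fell in *Rpl22*-/- HSCs. Markers of neutrophils summed to 34.1, 141 and 42.2 CPM across the *Rpl22*-/- libraries and to 9.63 to 29.5 CPM in *Rpl22*+/+ libraries, and the level of 7 of the 8 tested was higher in *Rpl22*-/- HSCs (median of the 8, 1.73 as a log2 fold change). An unadjusted p below 0.05 (edgeR) was reached by 6 of them, against 22.3% of all genes tested. Past the adjusted threshold 1, *Camp*, rose, against 3.28% of all genes tested. Markers of megakaryocytes, many of which HSCs also express, summed to 1004 to 1266 CPM in *Rpl22*-/- and 723 to 943 CPM in *Rpl22*+/+ HSCs. Of the 7 tested, 5 rose, against 3.28% of all genes tested. In such bulk samples, fewer cells of a type and less RNA per cell cannot be told apart.

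HSF1 binds inverted repeats of a short unit, which gives its target promoters a recognisable spelling. Promoter sequence from RefSeq (GRCm38.p6), running from 250 bases before to 50 bases after a start site, was matched for 6 of the 10 genes, *Hspa1a*, *Hspa1b*, *Hsph1*, *Dnaja1*, *Dnajb1* and *Hspe1*. Each was searched on both strands for 2 units in a row (GAANNTTC or TTCNNGAA) and for 3 units (GAANNTTCNNGAA or TTCNNGAANNTTC), in which every 3-unit match also holds a 2-unit match. Positions are counted from the start site, which is position 0. The matches are shown because they are the letters that HSF1 is known to bind in such promoters, each within 30 bases on the strand of its gene, with the matching letters in capitals.
*Hspe1*, chr1:55088053-55088082, forward strand, match from −89 to −72: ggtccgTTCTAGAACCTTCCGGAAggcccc
*Hsph1*, chr5:149636287-149636316, reverse strand, match from 36 to 48: agtaaaatgctgcagaTTCTGGAAAGTTCt
*Hsph1*, chr5:149636351-149636380, reverse strand, match from −33 to −26: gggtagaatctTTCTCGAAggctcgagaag
*Hspa1a*, chr17:34972242-34972271, reverse strand, match from −104 to −97: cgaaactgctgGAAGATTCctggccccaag
*Hspa1b*, chr17:34959324-34959353, reverse strand, match from −104 to −97: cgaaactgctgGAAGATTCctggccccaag
*Dnaja1*, chr4:40722333-40722362, forward strand, match from −124 to −117: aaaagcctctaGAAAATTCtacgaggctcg
The *Hspe1* stretch holds 2 overlapping matches of 3 units and the *Hsph1* stretch past the start site holds 1, and at least 1 such match is found in 0.603% of all 32851 promoter windows, while 2 units occur in 15.1% of them. The windows of *Hspa1a* and *Hspa1b* were identical at 296 of 300 bases. *Hsph1* has a further annotated start site, from which the same matches lie at 15 to 27 and at −54 to −47. *Dnaja1* has 3 windows, of which 2, for start sites further downstream, held no match, and neither window of *Dnajb1* held one, which says only that this spelling is not within them.

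The 10 genes spanned the range from some of the most abundant transcripts of the HSC to nearly none. Per kilobase of exon, *Hsp90ab1* had the highest level, 873 CPM per kb in *Rpl22*-/- and 747 in *Rpl22*+/+ HSCs, followed by *Hspa8* with 428 and 419 and by *Hsp90aa1* with 307 and 275. *Hspe1* came next with 83.0 and 76.7 CPM per kb. The lower levels per kb were those of *Dnaja1* with 28.6 and 35.2, *Dnajb1* with 20.2 and 22.3, *Hsph1* with 13.1 and 17.3 and *Hsf1* with 9.43 and 8.31. The inducible *Hspa1b* and *Hspa1a* stood far below, at 0.128 and 0.0263 CPM per kb in *Rpl22*-/- and 0.380 and 0.130 CPM per kb in *Rpl22*+/+ HSCs. Neighbours in this order whose libraries overlapped, and which are not told apart by it, were *Hspa8* and *Hsp90aa1* in *Rpl22*-/- HSCs, *Dnajb1* and *Hsph1* in *Rpl22*+/+ HSCs, and *Hspa1b* and *Hspa1a* in both. Copies share 74.8% of the coding transcript of *Hspa8* and 58.1% of that of *Hsp90aa1*, against 0% for *Hsp90ab1*. Reads that align to more than 1 place may thus be undercounted for *Hspa8* and *Hsp90aa1* in this order, which was not tested. With the longest coding transcript as the length in place of all exons, the order of the first 5 genes was kept, but the libraries of *Hsp90ab1* and *Hspa8* then overlapped in both genotypes. *Hsf1*, at 31.8 CPM per kb in *Rpl22*-/- and 28.1 in *Rpl22*+/+ HSCs, and *Hsph1* then had higher means than *Dnajb1*, at 21.6 and 23.8, with *Hsf1* above *Hsph1* in *Rpl22*-/- HSCs. Together the 10 genes took 0.531%, 0.693% and 0.620% of the gene reads of the *Rpl22*-/- libraries and 0.669%, 0.599% and 0.494% of those of the *Rpl22*+/+ libraries, so the genotypes overlapped in the reads spent on these genes.

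**Figure D1:**
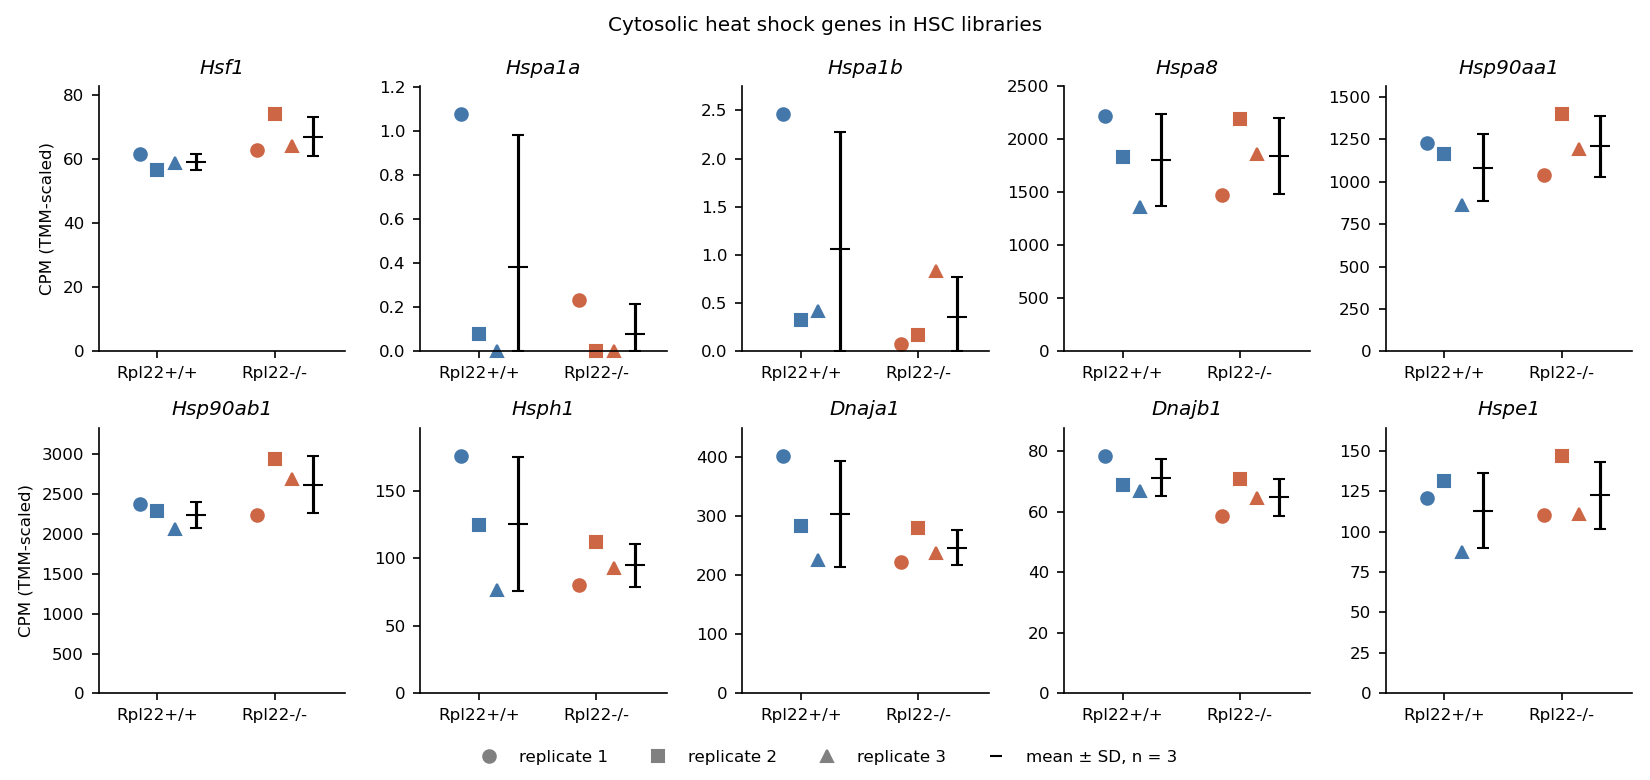
Level of each heat shock gene in CPM (vertical axis, linear from 0, with its own scale in each panel) in the 3 *Rpl22*+/+ and 3 *Rpl22*-/- libraries, with 1 point per library, its shape giving the replicate, and a bar for the mean ± SD (n = 3), cut at 0. The points of the genotypes overlap in each gene tested except *Hsf1*. *Rpl22*+/+ replicate 1 is the highest library in *Hspa1a*, *Hspa1b*, *Hsph1*, *Dnaja1* and *Dnajb1*, and by little in *Hspa8*.

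*Hsf1* (chr15:76477422-76501913 of mm10, forward strand) encodes the regulator of the programme and measured 62.8, 73.9 and 64.2 CPM across the *Rpl22*-/- libraries and 61.6, 56.7 and 58.8 CPM across the *Rpl22*+/+ libraries. All *Rpl22*-/- libraries were above all *Rpl22*+/+ libraries, but *Rpl22*-/- replicate 1 exceeded *Rpl22*+/+ replicate 1 by little. The means were 67.0 ± 6.05 CPM (SD, n = 3) and 59.0 ± 2.48 CPM (SD, n = 3), which is 0.18 on the log2 scale (95% interval −0.015 to 0.38), and the adjusted p was 0.263 (edgeR's quasi-likelihood test, Benjamini-Hochberg over all 14004 genes tested). Without *Rpl22*-/- replicate 2 the value was 0.11 (adjusted p = 0.592). *Hsf1* was the 1 gene of the 8 tested in which the genotypes did not overlap, which was so for 26.9% of all genes tested and, in the direction of higher *Rpl22*-/- libraries, for 13.3%. In 3 libraries against 3 the smallest exact two-sided permutation p is 0.1.

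The inducible HSP70 genes, *Hspa1a* (chr17:34969190-34972156, reverse strand) and *Hspa1b* (chr17:34956436-34959238, reverse strand), encode nearly the same protein, which is scarce at rest and abundant after stress. They were the least expressed of the 10 and had too few reads for the test on all 6 libraries. *Hspa1a* had 3, 0 and 0 reads across the *Rpl22*-/- libraries and 14, 1 and 0 reads across the *Rpl22*+/+ libraries, where a count of 0 allows up to 3 reads by counting error alone. *Hspa1b* had 1, 2 and 11 reads across the *Rpl22*-/- libraries and 32, 4 and 4 reads across the *Rpl22*+/+ libraries. Added up, the pair had 46 reads in *Rpl22*+/+ replicate 1 and 2 to 11 in each of the other libraries. The high value of 1 *Rpl22*+/+ library was thus not shared by the rest of its genotype, and the libraries of the genotypes overlapped. With no filter on low counts the log2 fold changes were −2.22 for *Hspa1a* and −1.55 for *Hspa1b* (edgeR adjusted p = 0.329 and 0.171), values that depend on the prior count. *Hspa1b* also passed the filter in 4 of the fits that left out 1 library, with log2 fold changes from −2.01 to −1.09 and adjusted p-values from 0.209 to 0.505. Of all stretches of 50 bases in the coding transcript of *Hspa1a*, 58.8% also occur in *Hspa1b*, so reads counted only where they align uniquely undercount both, and how they were divided is uncertain. *Gm20481* overlaps 2225 bases of *Hspa1a* on the opposite strand, and without a stated strand setting reads of the overlap cannot be assigned.

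*Hspa8* (chr9:40800984-40810087, forward strand) encodes HSC70, the HSP70 that cells make at all times. It measured 1469.8, 2192 and 1859 CPM across the *Rpl22*-/- libraries and 2218, 1832 and 1357 CPM across the *Rpl22*+/+ libraries. The highest and the lowest of the 6 values were both *Rpl22*+/+ libraries, and the *Rpl22*-/- values lay between them. The means were 1840.2 ± 361 CPM (SD, n = 3) and 1802 ± 431 CPM (SD, n = 3), and the log2 fold change was 0.03 (95% interval −0.31 to 0.37, adjusted p = 0.938). Without *Rpl22*+/+ replicate 3 it was −0.14, without *Rpl22*-/- replicate 2 −0.11, and with scaling by library size alone −0.016, so *Hspa8* had no stable direction. Copies of *Hspa8* cover 74.8% of its coding transcript in stretches of 50 bases, and the copy that is in the table, *Gm15459*, had 143 reads over all libraries against 134404 for *Hspa8*.

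The cytosolic HSP90 genes, *Hsp90ab1* for the constitutive and *Hsp90aa1* for the stress-inducible form, were both highly expressed. *Hsp90ab1* (chr17:45567775-45573271, reverse strand) measured 2237, 2932 and 2685 CPM across the *Rpl22*-/- libraries and 2377, 2285 and 2058 CPM across the *Rpl22*+/+ libraries. *Rpl22*-/- replicates 2 and 3 were above all *Rpl22*+/+ libraries, and *Rpl22*-/- replicate 1 was among them. The means were 2618 ± 352 CPM (SD, n = 3) and 2240.2 ± 164 CPM (SD, n = 3), with a log2 fold change of 0.22 (95% interval −0.016 to 0.47, adjusted p = 0.258). Without *Rpl22*-/- replicate 1 this became 0.33 with an adjusted p of 0.0401, the 1 alternative of 18 in which *Hsp90ab1* passed the threshold, and without *Rpl22*-/- replicate 2 it became 0.14 (adjusted p = 0.560). *Hsp90aa1* (chr12:110690605-110702728, reverse strand) measured 1036, 1396 and 1191 CPM across the *Rpl22*-/- libraries and 1225, 1163 and 859.9 CPM across the *Rpl22*+/+ libraries. Its genotypes overlapped, with means of 1207 ± 180.4 CPM (SD, n = 3) and 1083 ± 195 CPM (SD, n = 3) and a log2 fold change of 0.16 (95% interval −0.13 to 0.44, adjusted p = 0.528). That value was 0.015 without *Rpl22*+/+ replicate 3, 0.040 without *Rpl22*-/- replicate 2, 0.26 without *Rpl22*-/- replicate 1 and 0.26 without *Rpl22*+/+ replicate 1. The inducible form supplied 31.7%, 32.2% and 30.7% of the reads of the pair across the *Rpl22*-/- libraries and 34.0%, 33.7% and 29.5% across the *Rpl22*+/+ libraries, so the balance between the forms overlapped between the genotypes as well. Of the coding transcript of *Hsp90aa1*, 58.1% is shared with 2 pseudogenes, *Gm12346* and *Gm5844*, which had 145 reads in all against 84432 for *Hsp90aa1*, and *Hsp90ab1* shared none at this length. Reads that align equally to a pseudogene may be missing from both counts, so the share of the inducible form may be understated, which was not tested.

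*Hsph1* (chr5:149614287-149636376, reverse strand) encodes HSP105, an HSP110 protein that exchanges the nucleotide on HSP70. It measured 80.4, 112 and 92.7 CPM across the *Rpl22*-/- libraries and 176, 124 and 76.3 CPM across the *Rpl22*+/+ libraries. The *Rpl22*+/+ libraries themselves spanned 2.30-fold and held both the highest and the lowest value. The means were 95.02 ± 16.0 CPM (SD, n = 3) and 125 ± 49.7 CPM (SD, n = 3), and the log2 fold change was −0.41 (95% interval −0.84 to 0.022, adjusted p = 0.251), the one furthest from 0 among the 8 genes tested. This value rested on single libraries. Without *Rpl22*+/+ replicate 1, the highest, it was −0.084 (adjusted p = 0.856), and without *Rpl22*+/+ replicate 3, the lowest, it was −0.66 (adjusted p = 0.0402). *Hsph1* also passed with no filter on low counts (−0.40, adjusted p = 0.00133) and did not with DESeq2 (−0.40, adjusted p = 0.591). With no filter its standard error was 0.096, against 0.202 in the fit with the filter, from the same libraries. With no filter the standard errors of all 8 genes lay from 0.096 to 0.103, whatever their spread between libraries.

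Of the J-domain proteins, which bring clients to HSP70 and start its cycle, *Dnaja1* encodes a constitutive HSP40 of the cytosol and *Dnajb1* the stress-inducible one. *Dnaja1* (chr4:40722150-40737149, forward strand) measured 223, 279.7 and 237 CPM across the *Rpl22*-/- libraries and 401, 284 and 226 CPM across the *Rpl22*+/+ libraries. As for *Hsph1*, *Rpl22*+/+ replicate 1 stood above all others, and *Rpl22*+/+ replicate 3 was next to the lowest. The means were 247 ± 29.6 CPM (SD, n = 3) and 304 ± 89.1 CPM (SD, n = 3), and the log2 fold change was −0.30 (95% interval −0.63 to 0.025, adjusted p = 0.263). It was −0.049 (adjusted p = 0.891) without *Rpl22*+/+ replicate 1, and −0.30 with an adjusted p of 0.0323 with no filter on low counts. The standard error of *Dnaja1* with no filter was 0.096, against 0.154 in the fit with the filter. *Dnajb1* (chr8:83608193-83612653, forward strand) measured 58.7, 71.0 and 64.6 CPM across the *Rpl22*-/- libraries and 78.4, 68.9 and 66.8 CPM across the *Rpl22*+/+ libraries. It varied less than *Dnaja1*, and the genotypes overlapped. The means were 64.8 ± 6.15 CPM (SD, n = 3) and 71.4 ± 6.15 CPM (SD, n = 3), and the log2 fold change was −0.14 (95% interval −0.35 to 0.066, adjusted p = 0.422). It was −0.071 without *Rpl22*-/- replicate 1, −0.068 without *Rpl22*+/+ replicate 1 and −0.21 without *Rpl22*-/- replicate 2. *Smu1* overlaps 608 bases of *Dnaja1* on the opposite strand, and 18.3% of the coding transcript of *Dnaja1* is shared with 2 pseudogenes that had 27 reads in all against 20268 for the gene.

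*Hspe1* (chr1:55088132-55091307, forward strand) encodes HSP10, the lid of the mitochondrial folding chamber that *Hspd1* builds, and the 2 genes lie head to head and overlap by 112 bases on opposite strands. *Hspe1* measured 110.2, 146 and 110.6 CPM across the *Rpl22*-/- libraries and 121, 131 and 87.1 CPM across the *Rpl22*+/+ libraries. *Rpl22*-/- replicate 2 was the highest and *Rpl22*+/+ replicate 3 the lowest, with the rest mixed between them. The means were 122 ± 20.8 CPM (SD, n = 3) and 113 ± 23.1 CPM (SD, n = 3), and the log2 fold change was 0.11 (95% interval −0.18 to 0.40, adjusted p = 0.685), and it was −0.037 without *Rpl22*-/- replicate 2 and −0.042 without *Rpl22*+/+ replicate 3. The log2 fold change of *Hspd1* was 0.08 (adjusted p = 0.764). There were 0.246, 0.249 and 0.229 reads of *Hspe1* per read of *Hspd1* across the *Rpl22*-/- libraries and 0.221, 0.258 and 0.229 across the *Rpl22*+/+ libraries, a ratio that spanned less between libraries than the level of either gene. An annotated gene that shares 35.2% of the coding transcript of *Hspe1* was not used here.

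Of the 8 heat shock genes with enough reads for the test, 5 were higher in *Rpl22*-/- HSCs and 3 were lower, and edgeR's quasi-likelihood test put 0 of them past an adjusted p of 0.05, against 5.57% of all genes tested (3.28% higher and 2.29% lower). None reached an unadjusted p below 0.05, which 22.3% of all genes did, and the smallest unadjusted p, that of *Hsph1*, was 0.0614. DESeq2 and limma-voom also called 0 of the 8, and called 7.42% and 5.3% of all genes, while edgeR with no filter on low counts called 2, *Hsph1* and *Dnaja1*, and 6.89% of all genes. The median log2 fold change of the 8 was 0.071, and that of all genes tested was −0.0068. It turned negative without *Rpl22*-/- replicate 2 (−0.076) or without *Rpl22*+/+ replicate 3 (−0.090). The 3 lower genes were *Hsph1*, *Dnaja1* and *Dnajb1*, and the 5 higher were *Hsf1*, *Hspa8*, *Hsp90aa1*, *Hsp90ab1* and *Hspe1*. The intervals bound what these libraries could hide. For *Hsf1* and *Dnajb1* no interval reached 0.40 on the log2 scale in either direction, whereas for *Hsph1* a decrease of up to 0.84 lay within it.

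**Figure D2:**
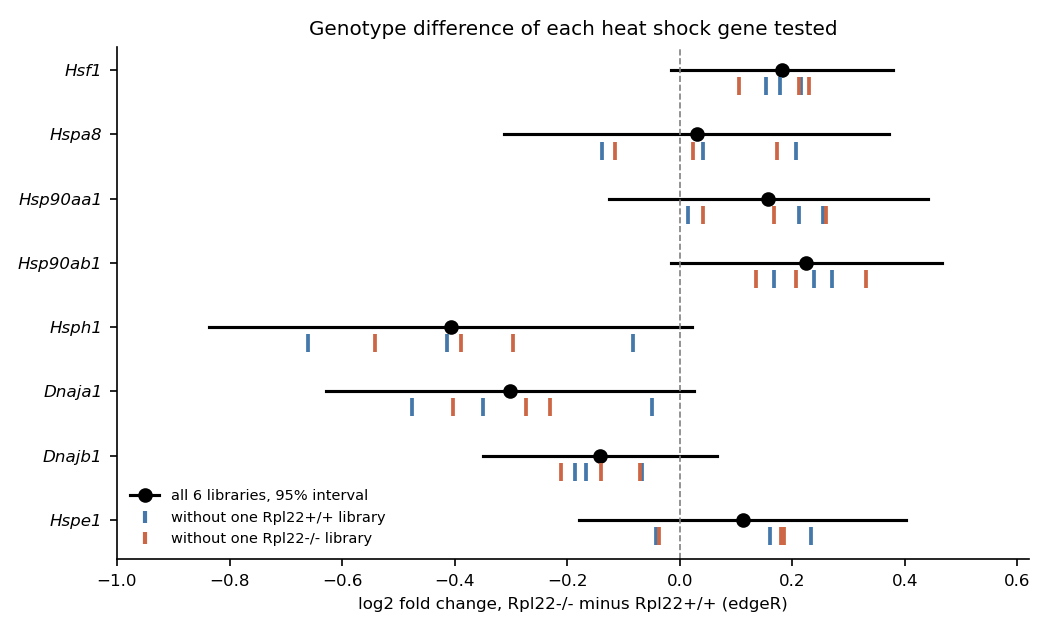
Log2 fold change of *Rpl22*-/- against *Rpl22*+/+ HSCs (horizontal axis) for each of the 8 heat shock genes tested, with a point and a line for the value and 95% interval from all 6 libraries and ticks for the value without each single library, coloured by the genotype of the library left out. Every interval includes 0, from *Hsph1* at −0.41 to *Hsp90ab1* at 0.22, and the ticks of *Hsph1* run from −0.66 to −0.084.

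The same libraries were high or low in gene after gene, within each genotype. Among *Rpl22*-/- libraries, replicate 2 was the highest and replicate 1 the lowest in 8 of the 8 genes tested, an order that 25.1% of 6946 well-expressed genes (average log2 CPM of at least 5) showed. Among *Rpl22*+/+ libraries, replicate 1 was the highest in 7 of the 8, all but *Hspe1*, against 32.6% of those genes. *Rpl22*+/+ replicate 3 was the lowest in 7 of the 8, all but *Hsf1*, against 43.6%. The median deviation of the 8 genes from the mean of their genotype was −0.17, 0.20 and −0.02 on the log2 scale across the *Rpl22*-/- libraries and 0.17, 0.04 and −0.33 across the *Rpl22*+/+ libraries. The spread between libraries of 1 genotype, as a pooled SD of log2 CPM, was 0.459 for *Hsph1*, 0.325 for *Hspa8*, 0.318 for *Dnaja1*, 0.276 for *Hspe1* and 0.247 for *Hsp90aa1*. Those 5 were each above the spread of about 96.5% or more of the well-expressed genes, while *Hsp90ab1* at 0.160, *Dnajb1* at 0.130 and *Hsf1* at 0.0995 were nearer the median of 0.112. The genes share their libraries, so their order counts as 1 observation per library rather than as 8. The difference between the genotypes was smaller than this spread for *Hspa8*, *Hsp90aa1*, *Hsph1*, *Dnaja1* and *Hspe1* and larger for *Hsf1* (1.83 times), *Hsp90ab1* (1.41 times) and *Dnajb1* (1.09 times).

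**Figure D3:**
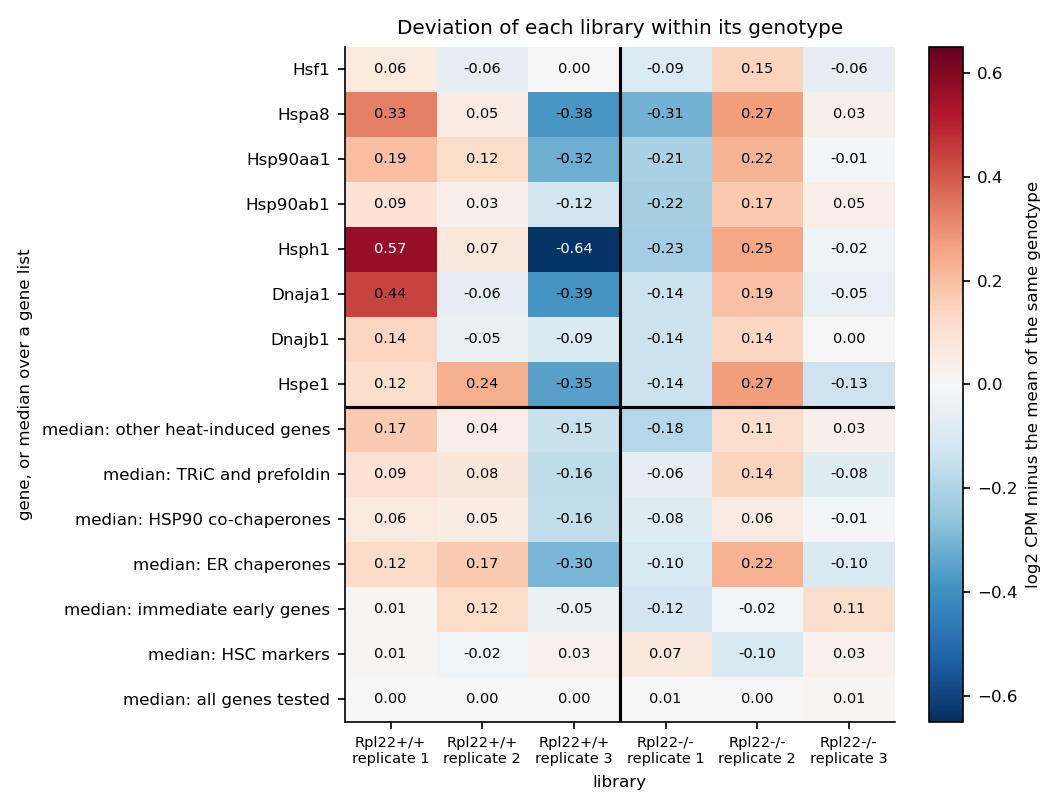
Heat map of the deviation of each library (columns) from the mean of its genotype in log2 CPM, for the 8 heat shock genes tested (upper rows) and for the median over 6 gene lists and over all genes tested (lower rows), with the value printed in each cell, red for above and blue for below the mean. The heat shock genes are below their mean in *Rpl22*-/- replicate 1 and above it in *Rpl22*-/- replicate 2, and 7 of the 8 are lowest in *Rpl22*+/+ replicate 3 among *Rpl22*+/+ libraries.

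Other values moved with these libraries. *Rpl22*+/+ replicate 3, low in the heat shock genes, was the shallowest library with 9321123 gene reads, and *Rpl22*-/- replicate 2, high in them, had the highest summed neutrophil markers, 141 CPM. The median deviation of the neutrophil markers was −0.48, 0.30 and −0.16 across the *Rpl22*-/- libraries and 1.42, −0.67 and −0.59 across the *Rpl22*+/+ libraries, so by this measure the libraries highest in the heat shock genes were also the highest in these markers within each genotype, although the summed level of *Rpl22*+/+ replicate 1, 27.0 CPM, was below that of *Rpl22*+/+ replicate 3, 29.5 CPM. Mitochondrially encoded genes took 3.37%, 3.83% and 3.61% of gene reads across the *Rpl22*-/- libraries and 3.48%, 3.25% and 3.06% across the *Rpl22*+/+ libraries, the same order as the median of the heat shock genes in both genotypes. Other heat-induced genes kept the order of the heat shock genes, with median deviations of −0.18, 0.11 and 0.03 across the *Rpl22*-/- libraries and 0.17, 0.04 and −0.15 across the *Rpl22*+/+ libraries. So did HSP90 co-chaperones, a list that shares genes with it, with −0.079, 0.056 and −0.015 and with 0.063, 0.047 and −0.16. No other proteostasis list kept it in both genotypes. Chaperones of the endoplasmic reticulum, with −0.10, 0.22 and −0.10 and with 0.12, 0.17 and −0.30, were highest in replicate 2 of both genotypes. Immediate early genes did not follow the order, with −0.12, −0.02 and 0.11 and with 0.01, 0.12 and −0.05. Neither did the HSC markers, which deviated by 0.10 at most. The part of depth, of neutrophil RNA, of the mitochondrial share or of handling in the order of the libraries was not tested.

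The genes whose log2 CPM over the 6 libraries was most like the mean standardised profile of the 8 heat shock genes were *Copb2*, a subunit of the coatomer of Golgi vesicles, with a Pearson r of 0.984, the mitochondrial aminotransferase gene *Oat*, with 0.981, *Abcf2* with 0.980, *Pdcd6ip* with 0.976 and *Vti1b* with 0.975. Most unlike it were *Camkk2* with an r of −0.996, *Rbm33* and *Tnrc6b* with −0.995 each, *Utrn* with −0.993 and *Trafd1* with −0.985. These are the ends of a ranking of 6938 genes over only 6 libraries and are given as a description. The profile was −0.701, 0.961 and −0.0262 SD across the *Rpl22*-/- libraries and 0.793, 0.0466 and −1.07 SD across the *Rpl22*+/+ libraries. The log2 fold changes of these 10 genes between the genotypes lay from −0.050 to 0.049. That narrow range follows from choosing them by a profile with similar means in the genotypes.

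The rest of the proteostasis network was compared by lists. Over 9 lists without the heat shock genes, 107 genes had enough reads, of which 6 rose and 4 fell, 9.35% against 5.57% of all genes tested. This count was 18 without *Rpl22*-/- replicate 1, 0 to 3 without any other single library and 4 with the trend on gene length or on GC content removed. The count over all genes tested, 780, moved in the same directions. It was 1720 without *Rpl22*-/- replicate 1 and 127 to 370 without any other single library. With the trend on gene length removed it was 641, and with that on GC content removed 508. The total of these lists thus varied with the libraries and the processing, as did that of all genes. Single genes held to different degrees, since *Ier5* passed the threshold in 17 of the 18 alternatives, *Serpinh1* in 15, *Hsf2* in 10 and *Ppp5c* in 7. Among other heat-induced genes, 9 of 14 were higher and 5 lower, and the median log2 fold change was 0.077. *Ier5*, which is both an immediate early gene and an activator of HSF1, rose by 0.85 on the log2 scale (adjusted p = 0.0107), and *Serpinh1*, the collagen chaperone HSP47, fell by 1.13 on the log2 scale (adjusted p = 0.0133). Among heat shock factors and their regulators, 4 of 6 were higher and 2 lower. *Hsf2*, a second heat shock factor that can pair with HSF1, fell from 27.0, 24.8 and 28.8 CPM across the *Rpl22*+/+ libraries to 21.98, 17.2 and 17.2 CPM across the *Rpl22*-/- libraries, a log2 fold change of −0.51 (adjusted p = 0.0388). *Hsf2* thus differed without overlap, in the direction opposite to that of *Hsf1*. *Sirt1* and *Stub1* followed with log2 fold changes of −0.30 and 0.19 (adjusted p = 0.0802 and 0.217). *Hsf3*, *Hsf4*, *Hsf5* and *Hsbp1l1* had too few reads for the test.

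Among the direct partners of HSP70 and HSP90 few genes passed. In the HSP70 family and its nucleotide exchange factors, 9 of 15 were higher, 6 lower and 0 called, and the smallest p-value was that of *Hspa13* (−0.34, adjusted p = 0.0581). Of 15 cytosolic J-domain proteins 6 were higher and 9 lower, and 1, *Dnajc8*, which is tied to splicing, rose by a log2 fold change of 0.35 (adjusted p = 0.0341). Of 18 HSP90 co-chaperones 8 were higher and 10 lower, and 1, the phosphatase gene *Ppp5c*, rose by 0.29 (adjusted p = 0.0476). *Sugt1* and *Fnip1* stood at log2 fold changes of −0.29 and −0.34 (adjusted p = 0.0837 and 0.0924). Small heat shock proteins were mostly silent, with 4 of 10 genes tested, of which 3 were higher, 1 lower and 0 called. Their median log2 fold change was 0.37, with *Hspb6* at 0.40, *Hspb11* at 0.36 and *Hspb8* at −0.64 (edgeR adjusted p = 0.202, 0.222 and 0.227). An unadjusted p below 0.05 was reached by 2 of the 4, against 22.3% of all genes tested. The strongly heat-inducible *Hspb1* had 0, 1 and 0 reads across the *Rpl22*-/- libraries and 3, 0 and 0 reads across the *Rpl22*+/+ libraries.

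Of 15 genes of the TRiC chaperonin and its partner prefoldin, 10 were higher and 5 lower. *Pfdn5* rose by a log2 fold change of 0.39 (adjusted p = 0.0290), *Vbp1*, a further prefoldin subunit, fell by 0.38 on the log2 scale (adjusted p = 0.0445), and *Pfdn2* stood at 0.36 on the log2 scale (adjusted p = 0.0513). Among 14 mitochondrial chaperones and proteases, 9 were higher and 5 lower, the protease gene *Htra2* rose by 0.31 (adjusted p = 0.0429), and *Yme1l1*, a protease of the inner membrane, fell by 0.31 on the log2 scale (adjusted p = 0.0426). Chaperones of the endoplasmic reticulum had 8 higher, 8 lower and 0 called among 16, with *Calr* at 0.38 (adjusted p = 0.0879). The immediate early genes, which, like the inducible heat shock genes, respond to handling, differed from the heat shock genes in count. Of 16 tested 15 were higher and 1 lower, and 6 rose, *Ppp1r15a*, *Junb*, *Ier5*, *Fos*, *Dusp1* and *Jund*, with log2 fold changes from 0.45 to 0.94. Among all genes tested, 6826 were higher and 7178 lower, and 3.28% rose past the threshold. The count for this list was not taken without single libraries. Their median log2 fold change was 0.54, beside 0.071 for the heat shock genes, and the difference between the lists was not tested.

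**Figure D4:**
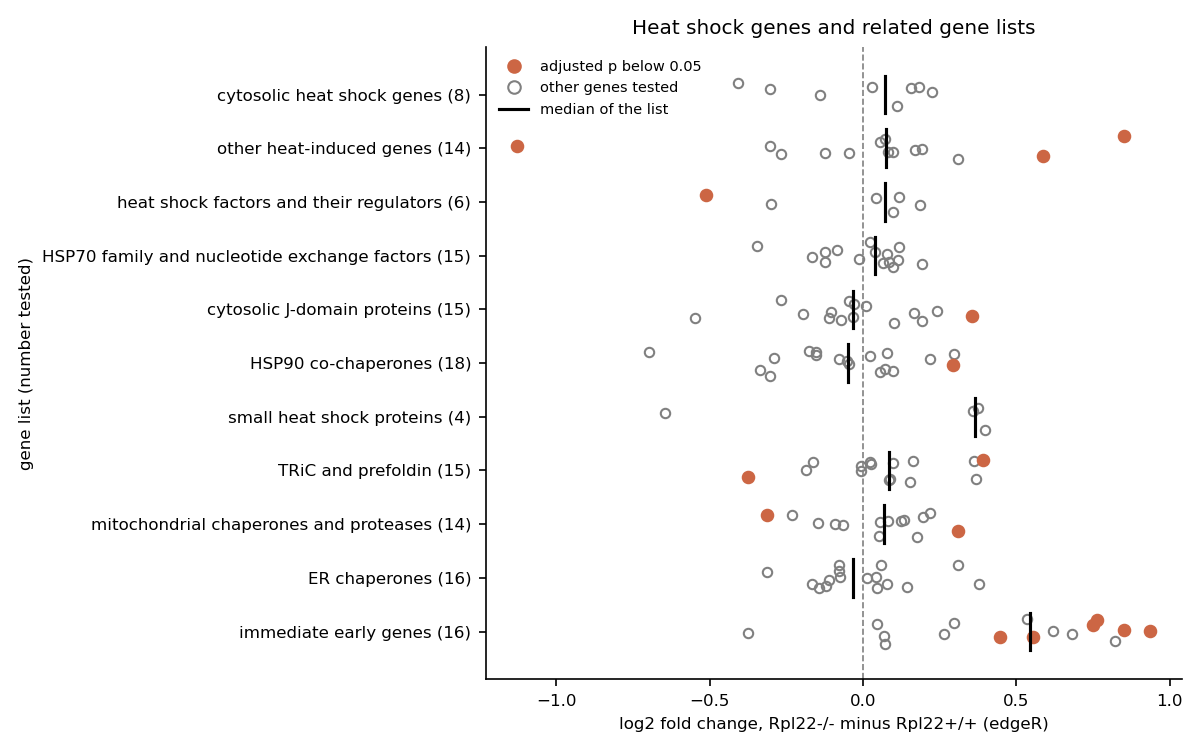
Log2 fold change of *Rpl22*-/- against *Rpl22*+/+ HSCs (horizontal axis) for each gene tested in the heat shock genes and in 10 other lists (rows, with the number tested), with a point per gene, a vertical bar for the median of the list and filled points for genes with an adjusted p below 0.05. The heat shock genes lie between −0.41 and 0.22 with a median of 0.071, and the immediate early genes have a median of 0.54.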

How the data were processed

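After quality control with FastQC the authors used TopHat2 2.1.1 for alignment to mm10 and HTSeq for counting, and deposited raw counts per gene. The strand setting and the annotation are not given in the sources used here. The 5 summary lines of the table (58.6% to 60.9% of counts per library) were left out. Replicates were grouped by the genotype in their labels, with 0 per-sample columns unused.

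The filterByExpr function of edgeR 4.0.16 (R 4.3.3, minimum count 10) left 14004 genes, and the quasi-likelihood test with TMM factors compared the genotypes without a covariate, p-values being adjusted over all of them by Benjamini-Hochberg. The standard error was obtained by dividing the size of a log2 fold change by the square root of F, and the 95% interval uses the t distribution of the fit. CPM are counts scaled to a common size of the TMM-scaled library. Each mean rests on 3 libraries, and intervals on counts cover counting error only. Alternatives were DESeq2 1.42.0, limma-voom 3.58.1, other scalings and filters, removal of trends on length and GC content, and single libraries left out. Of the symbols, 29093 were matched directly to a GRCm38 (mm10) annotation for positions and exons, 1848 by an older symbol, and 3632 were unmatched. *Pfdn6* was found as *H2-Ke2*, and the 2 markers *Hbb-bs* and *Hbb-bt* were not matched. Shared sequence was counted in windows of 50 bases for genes that do not overlap and share at least 10%.

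The heat shock genes, lists and tests were chosen with earlier results of these data known. The genes named are the 10 heat shock genes, *Rpl22*, list genes with an adjusted p below 0.05 or among the 3 smallest p-values of a list, the 5 genes most and least like the heat shock genes, and copies or neighbours of a heat shock gene. A few genes within this rule are given only in counts or are not reported here. The tests were first tested on simulated counts. Other experiments of the study were not analysed here.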

Additional observations from a re-analysis of the deposited data

How the results depend on the processing

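Of all genes tested 780 changed; with no filter on low counts 1422 did, with each library's trend on GC content removed 508, and without single libraries 127 (*Rpl22*-/- replicate 3) to 1720 (*Rpl22*-/- replicate 1). The count of heat shock genes changed was 0, and it was 2 (*Hsph1* and *Dnaja1*) with no filter and 0 to 1 without single libraries (*Hsp90ab1* without *Rpl22*-/- replicate 1, *Hsph1* without *Rpl22*+/+ replicate 3). Of the other proteostasis genes 10 changed, against 17 with no filter, 4 with the trend on gene length or on GC content removed, 4 with both removed and a term for replicate number, while single libraries left out gave 0 (*Rpl22*-/- replicate 3) to 18 (*Rpl22*-/- replicate 1). The median of the 8 heat shock genes, 0.071, was 0.026 with scaling by library size alone, under which the median of all genes was −0.051 and 43.4% of called genes, in place of 58.8%, were higher in *Rpl22*-/- HSCs. It was −0.090 to 0.18 without single libraries. *Hspa8* reversed with library size alone (−0.016) and without single libraries (−0.14 to 0.21), and *Hspe1* without single libraries (−0.042 to 0.23). The cause of these changes was not tested.

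The deviations of same-numbered libraries had correlations of −0.103, 0.0549 and 0.0448, and those of differently numbered libraries ran from −0.17 to 0.13. With 3 libraries per genotype these values cannot show whether the replicate numbers pair the samples. With a term for replicate number (a block) 904 genes changed and 0 of the heat shock genes. The sum of *Hspa1a* and *Hspa1b* stayed below the filter and gave no value. Depth limits *Hspa1a* and *Hspa1b*, whose 0 to 32 reads per library were below the filter in the test of all 6 libraries, and 3 libraries per genotype limit the rest.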
